A study of Mus musculus with 4 samples.

Results

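Of the 1000 distal regions that the authors listed as most enriched for H3K27ac in water-drinking mice over mice with colitis, 483 overlapped a binding peak of HNF4A by at least 1 bp in one or both conditions, and these are described here. They were chosen from the deposited water-enriched H3K27ac list, which sets out regions that lost the mark in colitis, and from the deposited HNF4A peak lists. Both H3K27ac lists together hold 2000 regions. The study used adult mice aged 2 to 4 months, and the material was a scraping of the colonic epithelium. Mice drank either water only or 3% dextran sulfate sodium (DSS) for 6 days, and each condition gave 1 H3K27ac library and 1 HNF4A library, so 4 groups of 1 library were compared. Neither a genotype nor a strain is given in the labels, and whether animals were pooled is not given in the sources used here. The files hold no expression values, so the labelled cell type could not be checked against marker genes. In scraped tissue, fewer cells that carry the mark and less of the mark per cell cannot be told apart.

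H3K27ac is an acetylation of histone H3 that marks the nucleosomes beside active enhancers and promoters, and the transcription factors of such an element sit between those nucleosomes. HNF4A belongs to the nuclear receptors, binds DNA as a homodimer and keeps up the genes of mature enterocytes and colonocytes, among them genes of transport and lipid handling. DSS damages the colonic lining and is widely used to cause colitis in mice.

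The H3K27ac libraries held 10143920 tags in water and 10329416 in DSS, and tags were scaled by these totals. The water HNF4A list held 17886 peaks and the DSS list 10688, each peak 600 bp wide. No value has a replicate check. Every interval given is a 95% interval that covers counting error or the spread over regions, never the spread between animals, and no p-value was computed. The list was chosen by the authors on the same H3K27ac tags, so the loss of H3K27ac itself is given as a description. Positions are on the mouse build mm9, and the regions were not assigned to genes because no annotation of that build was used.

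A peak in both HNF4A lists was held by 305 of the 483 regions (63.1%, interval 58.8 to 67.3). A water peak alone was held by 154 regions (31.9%, 27.9 to 36.2) and a DSS peak alone by 24 (4.97%, 3.36 to 7.29). Together, 178 regions held a peak in 1 list. For HNF4A-bound regions of the DSS-enriched list the split was 118, 90 and 21 of 229, so that 51.5% (45.1 to 57.9) held a peak in both lists. As a background, 52.9% of all water peaks overlapped a DSS peak. That is a share of peaks, not of regions, and was not matched on peak strength. A region in both lists also needs no overlap between its water and DSS peaks, so the shares are not like for like. The water list is the longer one, and these files do not give the HNF4A libraries' depth, so a peak missing from the DSS list does not show that binding was lost.

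The regions formed 416 sites once those that overlap were merged. Of these sites, 353 were single regions, 59 held 2 and 4 held 3. They lay on 20 chromosomes, with 40 regions on chromosome 2, 36 on chromosome 1, 5 on the X chromosome and 0 on the Y chromosome. On them lay 448 distinct water peaks and 298 distinct DSS peaks. Most regions with a water peak held 1 such peak (401), and 58 held more. The deposited distance of a region, read as the distance to an unnamed reference point, had a median of 21551 bp (quartiles 9019 and 49585). By this measure, regions with a peak in both lists lay at 20712 bp and regions with a peak in 1 list at 23687 bp. That difference of -2975 bp was not resolved (interval -7849 to 1900).

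At the edge of the overlap rule, the regions least covered by a peak shared 6 bp (chromosome 9, 98943386 to 98943841), 15 bp (chromosome 16, 78260081 to 78260651) and 24 bp (chromosome 6, 124875816 to 124876291). The nearest regions left out lay 6, 19 and 23 bp from a peak. Both kinds held similar tags: the first region inside had 203 nucleosome tags in water and 91 in DSS, and the first outside (chromosome 17, 33015091 to 33015541) had 231 and 108. An overlap of under 100 bp was found in 20 of the 483 regions, and 17 of the 517 regions with no peak lay within 100 bp of one. By score, the last of the bound regions ranked 994 of the 1000 (chromosome 5, 98998266 to 98998726), with 306 tags in water and 209 in DSS.

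**Figure D1:**
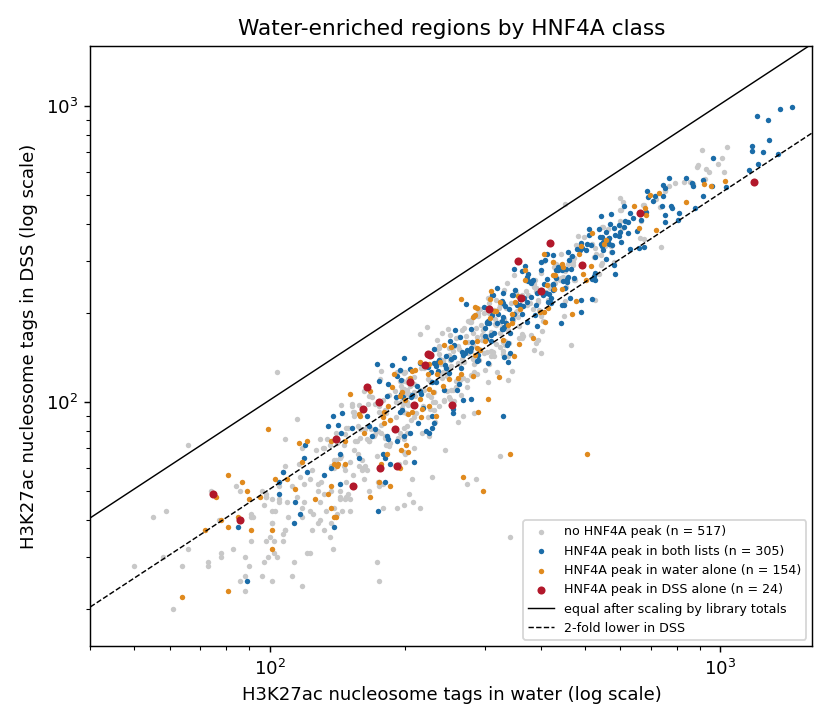
H3K27ac nucleosome tags of each of the 1000 water-enriched regions in the water library (x axis) and the DSS library (y axis), both on log scales, coloured by HNF4A class. Regions with a peak in both lists (305 points) reach the highest tags, up to 1441 in water, and the solid and dashed lines mark equal tags after scaling and a 2-fold lower value in DSS.

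HNF4A-bound regions carried much H3K27ac in both conditions. The deposited tables count tags on the nucleosomes and on the linker of a region separately, as read from their headers. Over the 483 regions, nucleosome tags ran from 64 to 1441 in water with a median of 314, and from 22 to 996 in DSS with a median of 185. The median region held 1.79-fold more tags in water than in DSS (quartiles 1.60 and 2.12), and the folds ran from 1.20 to 7.69. The interval of the ratio lay on the water side in 482 of 483 regions, where 99.3% of the whole list did so, which the choice of the list brings about. A drop of more than 2-fold was seen in 148 of the 483 bound regions (30.6%, 26.7 to 34.9), while 40.1% of the whole list fell that far.

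Regions bound in both conditions were the more acetylated ones and had the smaller folds. With a peak in both lists, the regions had a median of 353 nucleosome tags (quartiles 238 and 526) in the water library and 215 (131 and 330) in the DSS library. With a peak in 1 list the medians were 234.5 (167 and 360.75) and 121.5 (68.25 and 216.75). The quartile ranges overlap, and at the median the regions bound in both lists held 1.51-fold more tags in water (1.30 to 1.75) and 1.77-fold more in DSS (1.48 to 2.11). The median log2 ratio of DSS to water was -0.81 with a peak in both lists and -0.92 with a peak in 1 list, a difference of 0.11 (0.03 to 0.19). Drops of more than 2-fold made up 75 of 305 regions (24.6%, 20.1 to 29.7) and 73 of 178 (41.0%, 34.0 to 48.4), a difference of -16.4 points (-25.0 to -7.77). The last difference shrank to -6.00 points (-15.6 to 3.50) when an overlap of at least 300 bp was asked for, and to -7.81 points (-17.5 to 1.38) when the water list was limited to as many peaks as the DSS list has. Both of these intervals hold 0.

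These differences went with tag level. The deposited score is a difference of square roots of tags, so a region of many tags enters the list with a smaller fold: with no linker tags, 100 water tags pass the lowest listed score at 2.92-fold, 200 at 2.00-fold, 400 at 1.59-fold and 800 at 1.37-fold. When the regions were compared within 4 bins of tags, the share that dropped more than 2-fold differed by -3.86 points between both lists and 1 list (-12.0 to 4.32), an interval that holds 0. Within the bins the median log2 ratios differed by -0.0040 (-0.08 to 0.08). The bins count DSS tags as well as water tags, so a larger drop itself moves a region to a lower bin. Bins of water tags alone were not used, so this matching cannot separate tag level from the size of the drop. In the lowest bin, under 309 tags over both libraries, 64.0% of 50 regions with a peak in both lists (50.1 to 75.9) and 60.6% of 71 with a peak in 1 list (48.9 to 71.1) dropped more than 2-fold. In the highest bin, 7.29% of 96 (3.58 to 14.3) and 4.00% of 25 (0.71 to 19.5) did. The middle bins gave 35.1% of 74 and 45.7% of 46, then 11.8% of 85 and 22.2% of 36, and the intervals of each such pair overlap.

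**Figure D2:**
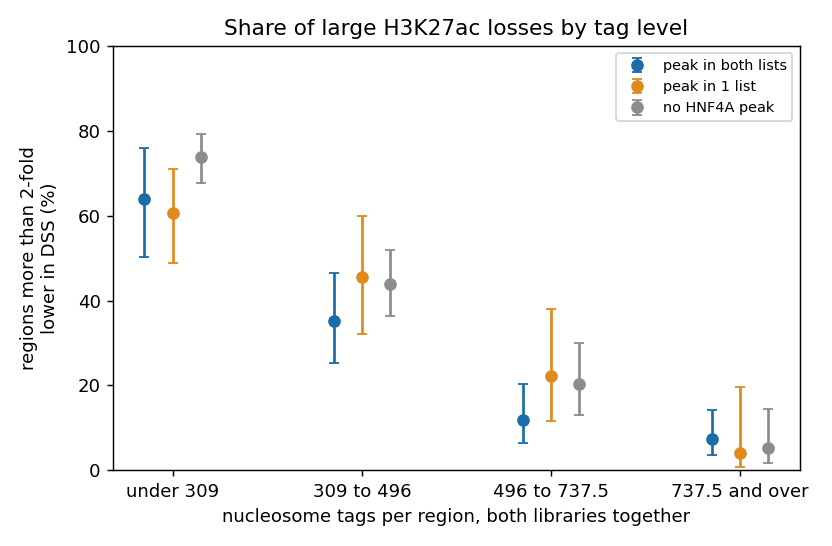
Share of regions with more than 2-fold fewer H3K27ac nucleosome tags in DSS (y axis, percent) in 4 bins of tags over both libraries (x axis), for regions with an HNF4A peak in both lists, in 1 list or in none, with Wilson 95% intervals. The share falls from 64.0% to 7.29% across the bins for regions with a peak in both lists, and the intervals of the classes overlap in every bin.

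Beside the 517 water-enriched regions without an HNF4A peak, the bound regions again had more tags and smaller folds. Unbound regions held a median of 231 nucleosome tags under water and 111 under DSS, so that bound regions were 1.36-fold higher in water (1.23 to 1.499) and 1.67-fold higher in DSS (1.45 to 1.91). More than 2-fold drops made up 253 of the 517 unbound regions (48.9%, 44.7 to 53.2), 18.3 points more than among bound regions (12.3 to 24.1 in size). Matched in the same 4 bins of tags, bound minus unbound was -6.31 points (-11.8 to -0.82). Of the unbound regions, 73.9% of 226 in the lowest bin and 5.26% of 57 in the highest dropped that far. The bins are wide, so tag level may still differ within a bin, and the -6.31 points are not shown to be apart from it. The excess of tags over unbound regions was found for regions with a peak in both lists, at 1.53-fold in water (1.38 to 1.70). For regions with a peak in 1 list it was not resolved, at 1.02-fold (0.87 to 1.18).

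The 24 regions with a DSS peak alone also held fewer H3K27ac tags in DSS, as the list they come from requires. Their medians were 215 tags in water and 115 in DSS, against 242.5 and 122.5 for the 154 regions with a water peak alone. The median log2 ratios were -0.78 and -0.93, and the difference of 0.15 was not resolved (-0.09 to 0.39). The DSS peaks on these 24 regions were weak ones, with a median rank percentile of 27.9 in the DSS list, where 100 is the strongest peak. Water peaks on the regions with a water peak alone had a median percentile of 38.4 in the water list, and the strongest of them ranked 2870. Where both lists had a peak, the medians were 76.8 in water and 67.0 in DSS. The water rank 2870 also belongs to a region with a peak in both lists (chromosome 19, 41931486 to 41932026), where the water peak overlaps a DSS peak. The class depends on the region edge, so a water peak alone does not exclude a DSS peak just outside the region. Percentiles of peaks found in 1 list are not given here for the whole lists. Weak peaks therefore cannot be called particular to these regions.

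The score that chose the list subtracts linker from nucleosome signal, so it favours regions with more linker tags in DSS, and the linker tags are given as a description. In 322 of the 483 regions (66.7%, 62.3 to 70.7) the scaled linker tags were higher in DSS than in water, where 66.2% of the whole list were. Summed over the 418 bound regions that do not overlap each other, nucleosome tags fell from 149177 in water to 87796 in DSS, while linker tags were 6356 in water and 8195 in DSS. The linker sum was 1.27-fold higher in DSS after scaling (1.23 to 1.31), beside 1.25-fold (1.21 to 1.29) in unbound regions, and the nucleosome sum 1.73-fold higher in water (1.72 to 1.74). The linker counts were low: the median region held 7 such tags in water and 11 in DSS. Nucleosome tags alone would have reached the lowest listed score in 299 of the 483 regions (61.9%, 57.5 to 66.1), close to the 61.2% of the whole list. That share was 66.9% with a peak in both lists (61.4 to 71.9) and 53.4% with a peak in 1 list (46.0 to 60.6).

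Counting all tags of a region, the interval of the ratio lay on the water side in 470 of 483 regions, against 96.9% of the whole list, and held 1 in the other 13. In 2 regions the scaled sum was higher in DSS, and they were singled out after their values were seen. On chromosome 8 (123208536 to 123209136), nucleosome tags were 81 under water and 57 under DSS while linker tags were 6 and 34. On chromosome 13 (115642981 to 115643601), nucleosome tags were 87 and 54 while linker tags were 45 and 87. Each held a weak water peak and no DSS peak, ranked 15353 and 15456 of 17886. The ratio of all tags in water to DSS was 0.97 (0.72 to 1.32) in the first and 0.95 (0.75 to 1.22) in the second, and both intervals hold 1.

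HNF4A peaks took particular places within the regions. The rule allows a peak centre to lie up to about 577.5 bp from the region centre at the median width. The strongest water peak of a region lay within 150 bp of the region centre in 269 of 459 regions (58.6%, 54.0 to 63.0), although this window is 26.0% of the allowed distance. In 33 regions it lay between 150 and 250 bp from the centre, 127 between 250 and 450 bp, and 30 farther out. DSS peaks were placed alike: 197 of 329 within 150 bp (59.9%, 54.5 to 65.0), 13 between 150 and 250 bp, 99 between 250 and 450 bp, and 20 farther out. The sides were about equal, with 221 of 459 water peaks at a positive distance. The plot of distances therefore has 3 humps, 1 at the centre and 1 on each side.

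**Figure D3:**
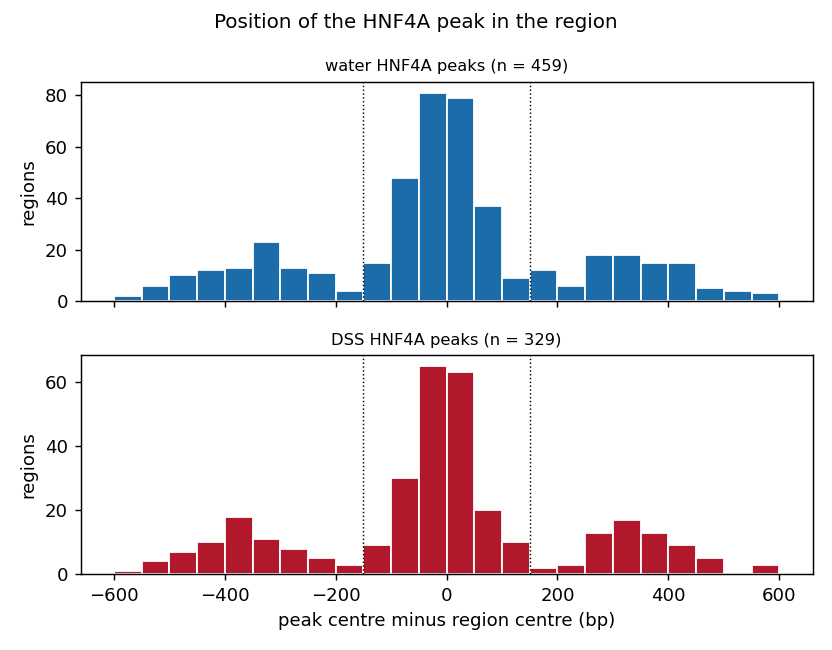
Distance from the region centre to the centre of its strongest HNF4A peak (x axis, bp) against the number of regions in steps of 50 bp (y axis), for 459 regions with a water peak and 329 with a DSS peak; dotted lines mark 150 bp. Both panels show a central hump with 269 and 197 regions inside the lines, and a lower hump on each side between 250 and 450 bp.

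Central peaks were more frequent here than on HNF4A-bound DSS-enriched regions, where 99 of 208 water peaks (47.6%, 40.9 to 54.4) and 61 of 139 DSS peaks (43.9%, 35.9 to 52.2) were central. Water peaks thus differed by 11.01 points (2.85 to 19.0), and DSS peaks by 16.0 (6.10 to 25.5). Between regions with a peak in both lists and those with a water peak alone the share of central water peaks differed by 4.16 points, with an interval that holds 0 (-5.28 to 13.7). In part, a side peak is the central peak of a neighbour: of the 190 regions with a side water peak, 62 shared a peak that was central to another water-enriched region, and 128 did not. Regions with a central water peak had fewer linker tags, with a median of 6 in water and 9 in DSS against 12 and 16.5 with a side peak. Their median share of linker tags in water was 1.68% against 3.69%, a difference of -2.01 points (-2.92 to -1.11). H3K27ac loss did not differ detectably with the position: the median log2 ratios were -0.84 with a central and -0.86 with a side water peak, a difference of 0.02 (-0.05 to 0.09).

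Stronger water peaks went with more H3K27ac and with fewer large drops. When the 459 regions with a water peak were split into quartiles of peak rank, the median nucleosome tags in water were 282, 271, 329 and 429 from the weakest to the strongest. Drops of more than 2-fold made up 44.3% (35.6 to 53.5), 37.4% (29.1 to 46.5), 21.1% (14.6 to 29.4) and 19.1% (13.0 to 27.3). Between regions above and below the median peak rank the difference was -20.5 points (-28.5 to -12.2), and within the 4 bins of tags it was -11.2 points (-18.9 to -3.40). Among regions with a peak in both lists alone it was -16.2 points (-25.5 to -6.59). Tag level may still differ within the wide bins, so the -11.2 points are not shown to be apart from it. For DSS peaks the quartiles gave 25.3%, 31.7%, 25.6% and 18.3%, with intervals that overlap one another. All 115 regions of the strongest water quartile also held a DSS peak, against 37 of 115 in the weakest (32.2%, 24.3 to 41.2). Over the whole water list 52.9% of peaks overlapped a DSS peak, and that share by peak rank is not given here. The contrast between quartiles therefore cannot be called particular to these regions. Across the 459 regions, peak percentile and log2 water tags had a Spearman rho of 0.28 and a Pearson r of 0.26, which describe regions of the same libraries.

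HNF4A peaks on the regions were set beside other shared peaks, since the H3K27ac tags that chose the regions do not fix the rank of a peak. Of 8628 pairs of a water and a DSS peak that overlap, 266 lay on the bound regions. Their median percentile was 77.1 in water (quartiles 57.0 and 89.4) and 66.7 in DSS (36.7 and 86.6). For the other 8362 pairs the medians were 72.5 and 56.7. A higher percentile in DSS than in water was reached by 90 of the 266 pairs (33.8%, 28.4 to 39.7), while 29.9% of all pairs did. Percentiles of shared peaks are lower in the shorter DSS list for most pairs, so the comparison was made against other pairs of like water rank. In 10 bins of water rank, pairs on the regions rose more often than other pairs by 6.71 points (1.30 to 12.1). Without the bins the difference was 4.02 points (-1.49 to 9.98), and the median change in percentile differed by 2.60 (-0.43 to 5.63), intervals that hold 0. Ranked among shared peaks alone, the difference within the bins was 4.28 points (-1.45 to 10.01). With an overlap of at least 300 bp it was 4.68 points (-1.23 to 10.6), and both intervals hold 0. The other alternatives had intervals above 0. They ran from 6.64 points with overlapping regions counted once (1.23 to 12.0) to 8.76 points with peaks scoring above the median of both lists (1.58 to 15.9). Thus shared HNF4A peaks on regions that lost H3K27ac were not found to fall in rank more than other shared peaks did. Water peaks without a DSS partner have no DSS rank and are left out. The regions held 448 distinct water peaks but 266 pairs, so nothing is said here about peaks that left the list.

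**Figure D4:**
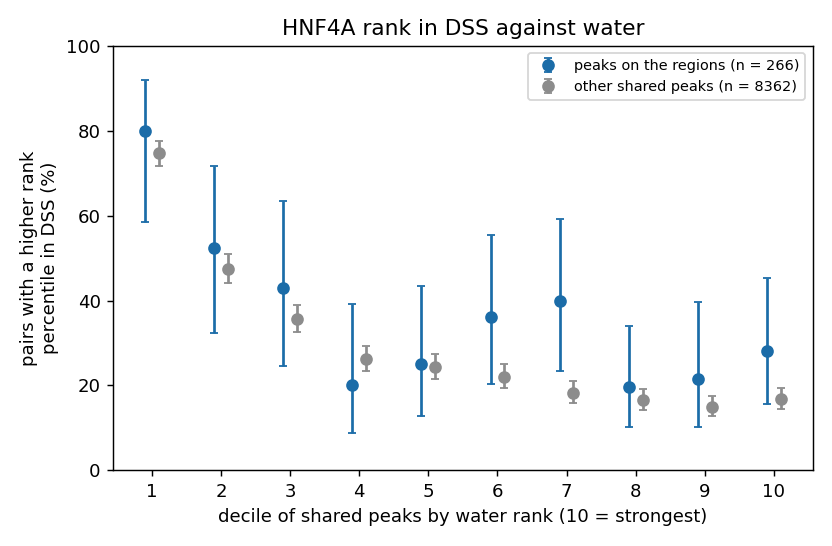
Share of shared HNF4A peak pairs whose rank percentile was higher in DSS than in water (y axis, percent) by decile of water rank (x axis, 10 is the strongest), for 266 pairs on the bound regions and 8362 other pairs, with Wilson 95% intervals. In the lowest decile 80.0% and 74.7% rose, and in the highest 28.1% and 16.7%, and the intervals overlap in all deciles but the seventh.

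In the weakest decile of water rank, 16 of 20 pairs on the regions and 74.7% of other pairs rose. In the seventh decile 10 of 25 pairs on the regions rose (40%, 23.4 to 59.3) against 18.3% of other pairs (15.8 to 21.1), the decile in which the intervals stood apart. Pairs on DSS-enriched bound regions rose in 36 of 112 cases (32.1%, 24.2 to 41.3), and the matched difference between the kinds of region was 4.24 points (-5.23 to 13.7), which was not resolved. Centres of paired peaks lay a median of 29.5 bp apart on the regions and 27 bp elsewhere, and 74.8% and 75.9% were within 50 bp. Across the 305 regions with a peak in both lists, the change in percentile and the log2 H3K27ac ratio had a Spearman rho of -0.08 and a Pearson r of -0.06. Neither value is far from 0 over these regions.

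Single pairs moved far in rank in both directions. The largest rise was on chromosome 10 (water peak 17190567 to 17191166), from rank 13259 in water to 1328 in DSS, on a region (17190536 to 17191171) with 488 nucleosome tags in water and 328 in DSS. A peak on chromosome 14 (26573923 to 26574522) went from rank 13565 to 1944, on a region with 251 and 161 tags. On the X chromosome (39412820 to 39413419) a peak went from rank 12799 to 2027, on a region with 337 and 159 tags, a 2.16-fold loss (1.78 to 2.62). The H3K27ac loss of these regions is set by the list they come from, and the pairs were picked for their change in rank, in lists of unequal length. The largest fall was on chromosome 3 (94717542 to 94718141), from rank 1808 to 10328, on a region with 453 and 243 tags. On chromosome 5 (148111067 to 148111666) a peak fell from rank 432 to 9172, yet its region lost little H3K27ac, with 368 and 289 tags (1.30-fold, 1.11 to 1.52).

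Among the regions with a peak in both lists, the highest score was at chromosome 3, 96379106 to 96379671, with 1341 nucleosome tags in water and 692 in DSS. Its DSS peak ranked 269 and its water peak 2025. Next came a pair of regions on chromosome 9 that overlap and share a peak (93942951 to 93943466 with 1157 and 608 tags, 93942601 to 93943151 with 1027 and 535), ranked 4343 in water and 978 in DSS. They lay 495292 and 495624 bp from their reference point, far beyond the median region. Regions on chromosome 19 (41931486 to 41932026) and chromosome 11 (110241186 to 110241771) held 1244 and 879 tags in water and 703 and 452 in DSS. All of these lost between 1.802-fold and 1.98-fold, and they are high in the list through their many tags. The DSS peak of the chromosome 19 region only touched its edge, with a centre 559 bp from the region centre.

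The largest fold among bound regions was in a region with a water peak alone, while the largest fold of the whole list, 9.92, was in an unbound region. Overlapping regions on chromosome 16 (92148171 to 92148716 and 92148516 to 92149096) went from 506 to 67 and from 268 to 56 nucleosome tags, and share 1 water peak of rank 13161, which lies 6 bp from the centre of the second. Another region on chromosome 16 (97891786 to 97892351) went from 298 to 50 tags, a 6.07-fold loss (4.49 to 8.36), with a water peak of rank 13413. The region on chromosome 11 at 113085006 to 113085586 went from 323 to 122 tags, 2.70-fold (2.18 to 3.35). Of the 5 largest folds among bound regions, 4 were in regions with a water peak alone, a class of 31.9% of the bound regions. These 4 include the overlapping regions on chromosome 16 that share a peak, so they are not separate sites. The fifth, on chromosome 10 (119441091 to 119441671), went from 174 to 43 tags, 4.12-fold (2.94 to 5.90). Its HNF4A peak ranked 12245 in water and 4544 in DSS.

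The strongest HNF4A peaks on these regions were also in the DSS list, which was not compared with strong peaks elsewhere. The strongest lay on chromosome 8, ranked 16 in water and 6 in DSS, and was central to a region (13698216 to 13698766) with 714 and 498 tags, a 1.46-fold loss (1.30 to 1.64). A neighbouring region that overlaps it (13697966 to 13698416) went from 373 to 219 tags. On chromosome 17, a peak ranked 45 in water and 263 in DSS touched a region (29187421 to 29187956) that went from 330 to 90 tags, 3.73-fold (2.95 to 4.77). The overlapping region in which that peak was central (29186871 to 29187451) went from 341 to 171, 2.03-fold (1.69 to 2.45), so the loss was larger beside the peak than around it. On chromosome 3 (35619466 to 35619956), with ranks 59 and 18, nucleosome tags went from 599 to 375, and on chromosome 1 (127346706 to 127347281), with ranks 63 and 20, from 913 to 566. Whether any of these sites belongs to the parts of the genome that give artefact signal was not tested.

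Regions with a DSS peak alone were led by one on chromosome 3 (122591086 to 122591676) with 1186 and 554 tags and a peak of rank 9819. The peak centre lay 460 bp to the left of the region centre, where another water-enriched region overlaps the region. That DSS peak also overlaps a water peak of rank 11924 (122590443 to 122591042), which ends before this region starts. The region is thus in this class through the edge of the overlap rule. On chromosome 12 (31617851 to 31618316) tags went from 254 to 98, 2.64-fold (2.08 to 3.37), with a peak of rank 4445. On chromosome 17 (85445321 to 85445836) they went from 192 to 61, 3.21-fold (2.39 to 4.35), with a peak of rank 7476 that lay 52.5 bp from the centre. The smallest loss of all bound regions was also in this class: 356 and 301 tags on chromosome 6 (128548236 to 128548801), 1.20-fold (1.03 to 1.41), where linker tags were 85 in water and 144 in DSS.

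Most bound sites stood alone: 370 of 416 had no other bound site within 50 kb, and 20 groups held 2 sites. Only 2 groups held 3 sites at such gaps. One spans 34.0 kb of chromosome 6 (52214931 to 52248971), a stretch that general knowledge of mm9, not an annotation used here, places just past the end of the HoxA cluster of homeobox genes, whose posterior members pattern the hindgut. Its regions held 153, 143 and 314 nucleosome tags in water and 52, 67 and 172 in DSS, losses of 3.00-fold (2.17 to 4.19), 2.17-fold (1.61 to 2.95) and 1.86-fold (1.54 to 2.25). The first held a DSS peak alone of rank 7772, and the other two a peak in both lists, ranked 1759 and 5776 in water and 2157 and 6068 in DSS. Each of these bound regions had an HNF4A peak in DSS, while their lower H3K27ac is set by the list they come from. The span holds 4 water-enriched regions, of which 3 are bound.

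The other group spans 48.6 kb of chromosome 13 (6028056 to 6076671), with 6 water and 5 DSS peaks inside it. Its regions went from 167 to 109, from 345 to 199 and from 225 to 132 tags, losses between 1.56-fold and 1.77-fold. The first pair held a water peak alone and the last a peak in both lists. On chromosome 4, 3 bound regions lie spaced more widely (55626271 to 55626886, 55674746 to 55675371, 55731291 to 55731861), in a stretch that the same general knowledge places beside Klf4, a zinc-finger factor of the differentiated gut epithelium. They held 351, 231 and 121 tags in water and 217, 136 and 58 in DSS, each with a peak in both lists. Loci were named after their values were seen.

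**Figure D5:**
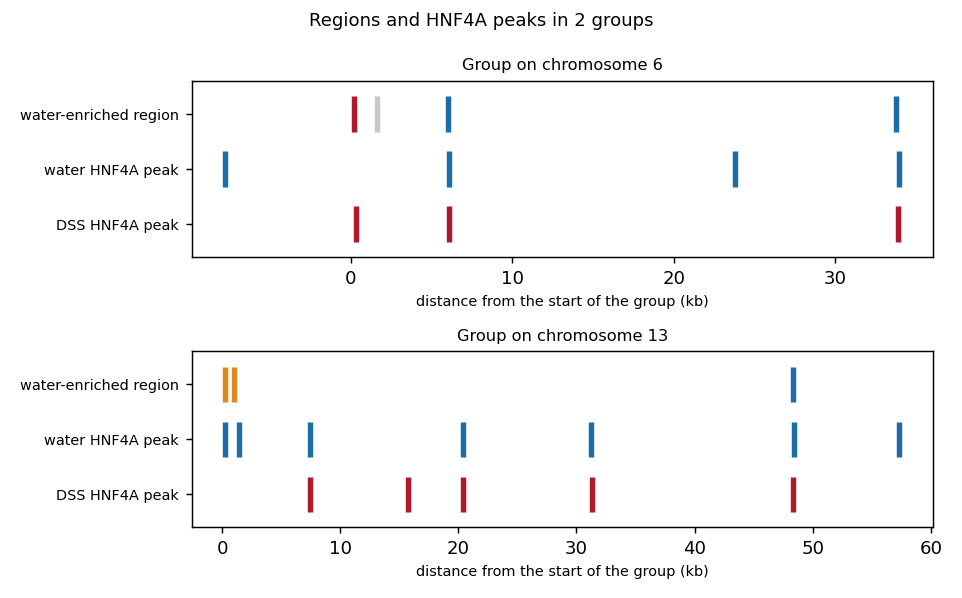
Positions of water-enriched H3K27ac regions (blue with an HNF4A peak in both lists, orange with a water peak alone, red with a DSS peak alone, grey with none) and of HNF4A peaks in water and in DSS along the groups on chromosomes 6 and 13; the x axis is the distance from the start of the group in kb. On chromosome 6 each of the 3 bound regions has a DSS peak, and on chromosome 13 the leftmost pair has a water peak alone.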

How the data were processed

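ChIP-seq of H3K27ac and HNF4A was deposited for water and DSS colonic epithelium, with 1 library per group. CASAVA 1.8.2, MACS2 and the build mm9 are named, without their roles, per the submitters' processing notes. Per the file headers, the H3K27ac tables give raw tag counts, on reads marked MAPQ20, for nucleosome ("nuc") and linker ("lin") parts of each region, with a score named NSD that the authors computed. Columns whose header has WT were taken for the water library, and "r2" in the DSS header is not explained. The score was rebuilt from the counts, which gave the library totals. The column headed "id" was read as a distance in bp to an unnamed point. The deposited HNF4A lists hold a peak score of unstated kind, used here to rank peaks within a list, tied peaks sharing the better rank. Starts of regions are printed as deposited and starts of peaks 1-based.

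Python 3.11.15, numpy 2.4.6, scipy 1.17.1 and pandas 2.3.3 were used. Log2 ratios used a pseudocount of 0.5 and scaling by library totals. Ratio intervals are exact conditional (Clopper-Pearson), shares have Wilson and differences of shares Newcombe or, within bins, Mantel-Haenszel intervals, and differences of medians have Price-Bonett intervals. Overlapping regions share tags and peaks, so regions are not independent. The functions were tested on simulated data. Regions named were the 5 of highest score per class, those with the strongest peaks, the largest and smallest folds and the largest changes in rank, groups of 3 or more sites at gaps of up to 50 kb, and the edges of the rule. The regions and comparisons were chosen with earlier results of these data known, and the splits by peak strength and by position against linker tags were added after the first values were seen.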

Additional observations from a re-analysis of the deposited data

How the results depend on the processing

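Under 14 alternatives, 9 results with an interval were recomputed to give 64 values, of which 54 stayed inside the interval of the value reported, 9 moved out of it and 1 changed sign. Leaving out the scaling cannot change a difference of median log2 ratios, so such values are among the 54 by construction. The number of bound regions, 483, has no interval and was within 1.5 times that count under 4 of 6 alternatives. Within 4 bins of tags over both libraries, the difference in median log2 ratio between both lists and 1 list turned from 0.11 to -0.0040. The difference in drops of more than 2-fold moved to -3.86 points. With an overlap of at least 300 bp, 57.1% of regions held a peak in both lists, the difference in such drops was -6.00 points, and 85.5% of water and 92.2% of DSS peaks were central, since that rule removes side peaks. When only peaks scoring above the median of both lists counted, 319 regions were bound, 58.0% in both lists, and the log2 difference in water tags between both lists and 1 list moved from 0.59 to 0.32. The 500 regions of highest score held 253 bound ones. Within 100 bp of the centre lay 53.4% of water and 54.4% of DSS peaks. Ranks among shared peaks alone were tried after the data were seen. No paired analysis was possible because each group has 1 library. Low linker counts limit statements about single regions, and the unknown HNF4A depth limits those about lost peaks.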
